A study of Homo sapiens with 9 samples.

Results

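The genes described are 35 core genes of autophagy, taken as the rows of a count table of 60708 genes whose Ensembl identifier maps to a fixed list of gene symbols. The list holds 5 genes of the ULK1 initiation complex, 6 of the class III PI3-kinase complexes and their regulators, 5 of phagophore expansion, 10 of the ATG12 and ATG8 conjugation machinery, 4 ATG8-family genes and 5 cargo receptor genes. All 35 symbols were found, each in 1 row, and all 35 passed the filter on low counts that left 20812 genes for testing. The lowest count of any of them in any library was 92, for ATG4C.

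Autophagy encloses cytoplasm in a double membrane, the autophagosome, and delivers it to the lysosome for breakdown. The ULK1 kinase complex starts the process, a class III PI3-kinase complex marks the growing membrane with phosphatidylinositol 3-phosphate, WIPI proteins read that mark, and ATG2 and ATG9 supply lipid. A pair of ubiquitin-like conjugation systems then attaches ATG8-family proteins such as LC3B and GABARAP to the membrane, where cargo receptors such as p62 bind them.

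The libraries came from MDA-MB-231, an established human triple-negative breast cancer cell line, grown as 1 unmodified line, and were made from polyadenylated RNA. In the first group the cells had been treated with 10 nM pladienolide B (PdB), a small molecule that blocks the SF3B subcomplex of the spliceosome, for 16 h. The second group was collected after 24 h of recovery from PdB. The third received the solvent DMSO, for a time that the labels do not give. Each group has 3 libraries, and the questions are which genes differ under splicing inhibition and which still differ after the drug is withdrawn. The labels do not say whether the 3 libraries of a group are separate cultures, so p-values measure the spread between these libraries, which may be technical.

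The upstream sequences of 4 of the genes are shown because 2 of them carry the only E-boxes found and the other 2 belong to the ATG8-family genes with the largest rises under PdB and after recovery. Each is the 250 bases before the gene's RefSeq start on assembly GRCh38.p14, 5′ to 3′ on the gene's strand, and capitals mark the E-box CACGTG, the core that MiT/TFE transcription factors bind. ATG14 lies on the minus strand at chr14:55411831-55412080, ATG3 on the minus strand at chr3:112561963-112562212, MAP1LC3B on the plus strand at chr16:87392086-87392335 and GABARAPL1 on the plus strand at chr12:10212627-10212876.
ATG14: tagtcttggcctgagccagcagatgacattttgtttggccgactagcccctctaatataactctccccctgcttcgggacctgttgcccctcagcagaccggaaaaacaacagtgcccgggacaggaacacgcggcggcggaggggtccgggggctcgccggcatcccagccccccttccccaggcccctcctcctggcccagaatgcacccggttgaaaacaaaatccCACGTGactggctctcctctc
ATG3: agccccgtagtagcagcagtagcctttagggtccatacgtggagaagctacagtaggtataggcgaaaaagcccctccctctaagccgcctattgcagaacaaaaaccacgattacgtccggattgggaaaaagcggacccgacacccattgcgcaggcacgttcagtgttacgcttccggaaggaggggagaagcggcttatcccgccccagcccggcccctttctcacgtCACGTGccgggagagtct
MAP1LC3B: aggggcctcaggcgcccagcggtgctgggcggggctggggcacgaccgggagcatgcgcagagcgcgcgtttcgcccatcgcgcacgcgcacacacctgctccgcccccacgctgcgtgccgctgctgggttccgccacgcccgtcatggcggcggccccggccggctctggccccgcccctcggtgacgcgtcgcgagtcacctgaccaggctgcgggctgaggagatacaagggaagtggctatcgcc
GABARAPL1: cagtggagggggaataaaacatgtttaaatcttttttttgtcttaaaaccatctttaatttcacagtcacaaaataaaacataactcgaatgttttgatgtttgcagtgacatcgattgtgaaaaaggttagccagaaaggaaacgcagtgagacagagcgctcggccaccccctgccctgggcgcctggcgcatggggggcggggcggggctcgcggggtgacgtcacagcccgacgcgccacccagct
The E-box begins at position -21 from the start in ATG14 and at position -18 in ATG3. RefSeq sequences were matched for 32 of the 35 genes, and CACGTG, a palindrome and so the same on both strands, was in 2 of the 32 (6.25%), against 6.49% of 27305 promoters of the same length. The longer CLEAR palindrome of TFEB, which contains the E-box, was in 0 of 32 and in 0.33% of all promoters. The ATF4 and C/EBP composite element TGATGNAAT, searched on both strands, was in 0 of 32 and in 0.916% of all promoters. Such a match is a description of the letters in this window, and the RefSeq start may not be the start used in these cells. GENCODE 29 places the gene ends further upstream for all 4, at 55411858 for ATG14, 112562046 for ATG3, 87383995 for MAP1LC3B and 10212458 for GABARAPL1. By that annotation both E-boxes, and the whole windows of MAP1LC3B and GABARAPL1, lie inside the gene. So do whole windows of other members counted above, among them AMBRA1, ATG5, ATG16L1 and BECN1. The motif counts over the 32 windows are therefore not all counts of sequence upstream of the gene.

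Library totals ran from 56389689 to 67047079 assigned reads, and 19006 to 20329 genes had at least 10 reads. Mitochondrially encoded genes took 6.71 to 8.43% of reads in PdB cells, 8.02 to 8.18% in recovered cells and 4.67 to 5.59% in DMSO cells. The labelled cell type was checked with 7 genes high in MDA-MB-231: summed, these stood at 7146 to 7344 reads per 1000000 (CPM, with TMM scaling) in PdB cells, 4413 to 4571 CPM in recovered cells and 8302 to 8472 CPM in DMSO cells. By the test described below, 2 of these 7 were higher and 3 lower under PdB, beside 32.0% and 38.2% of all genes. At recovery against DMSO 7 of 7 were lower, beside 30.5% of all genes. The oestrogen receptor gene ESR1 had 0 reads in every library, where 3 reads would be at most 0.0576 CPM. The luminal keratins KRT8 and KRT18 made up most of a luminal list that summed to 945 to 1113 CPM in PdB cells, 1231 to 1420 CPM in recovered cells and 1065 to 1259 CPM in DMSO cells. The 6 leukocyte markers summed to at most 1.93 CPM in any library. The 6 fibroblast markers, led by COL1A1 and PDGFRB, summed to 6.38 to 12.2 CPM in PdB cells, 32.0 to 36.6 CPM in recovered cells and 15.2 to 21.3 CPM in DMSO cells. The identity and fibroblast sums were separate between all 3 groups, and the mitochondrial share was higher in every PdB and recovered library than in any DMSO library; the part of these in the results was not tested. Leukocyte sums overlapped between all groups, and luminal sums of the PdB and recovered cells each overlapped those of DMSO cells. Sums follow the most abundant genes, and single markers differed by the test described below. Of 5 luminal genes tested, 3 were higher and 1 lower under PdB, and 3 and 0 at recovery against DMSO. Of 5 fibroblast genes tested, 1 was higher and 2 lower under PdB. At recovery against DMSO 3 were higher and 0 lower, with log2 changes from -0.58 to 7.35. Over all genes 30.7% were higher at recovery.

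Under PdB the autophagy genes split in both directions. Of the 35 genes, 10 were higher and 16 lower in PdB than in DMSO cells (edgeR's quasi-likelihood test, Benjamini-Hochberg adjusted p under 0.05 over 20812 genes), and 9 did not pass. The gene for the PI3-kinase subunit ATG14, at 3.88 times its DMSO level, the ATG8-family gene MAP1LC3B, at 3.29 times, and the phosphoinositide reader gene WIPI2, at 2.46 times, rose most. The protease gene ATG4C, at 0.216 times its DMSO level, WIPI1, at 0.266 times, and the E1-like enzyme gene ATG7, at 0.367 times, fell most. All of these are relative levels in bulk RNA, in which fewer cells of a kind and less RNA per cell cannot be told apart. Counts per gene also do not show whether the transcripts were correctly spliced. Over all genes tested, 32.0% were higher and 38.2% lower, so both shares of the autophagy genes lie near the background. At least 2-fold changes were found for 4 higher and 6 lower members, where the background is 17.4% and 22.2%. The 3 PdB values did not overlap the 3 DMSO values for 26 members, where 72.5% of all genes were separated in this way. The members' median log2 change was -0.16, beside -0.11 for all genes, and scaling by library totals alone, which moves the median of all genes to -0.31, gave 7 higher and 22 lower members. Over all 20812 genes that scaling gave 5579 higher and 9098 lower. The members' share of lower genes lay above that background there, and the list itself was not tested. With that scaling ATG10, ATG13 and ATG5 no longer passed as higher; ATG4D and NBR1 no longer passed as lower under several settings, among them factors from DESeq2's method or the upper quartile. Of the 9 members that did not pass, 8 passed under at least 1 of 18 alternative settings, GABARAPL1 being the exception. With library totals AMBRA1, ATG2B, GABARAPL2, RB1CC1, SQSTM1 and UVRAG passed as lower, while PIK3R4 and ATG12 passed as higher with upper-quartile factors.

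**Figure D1:**
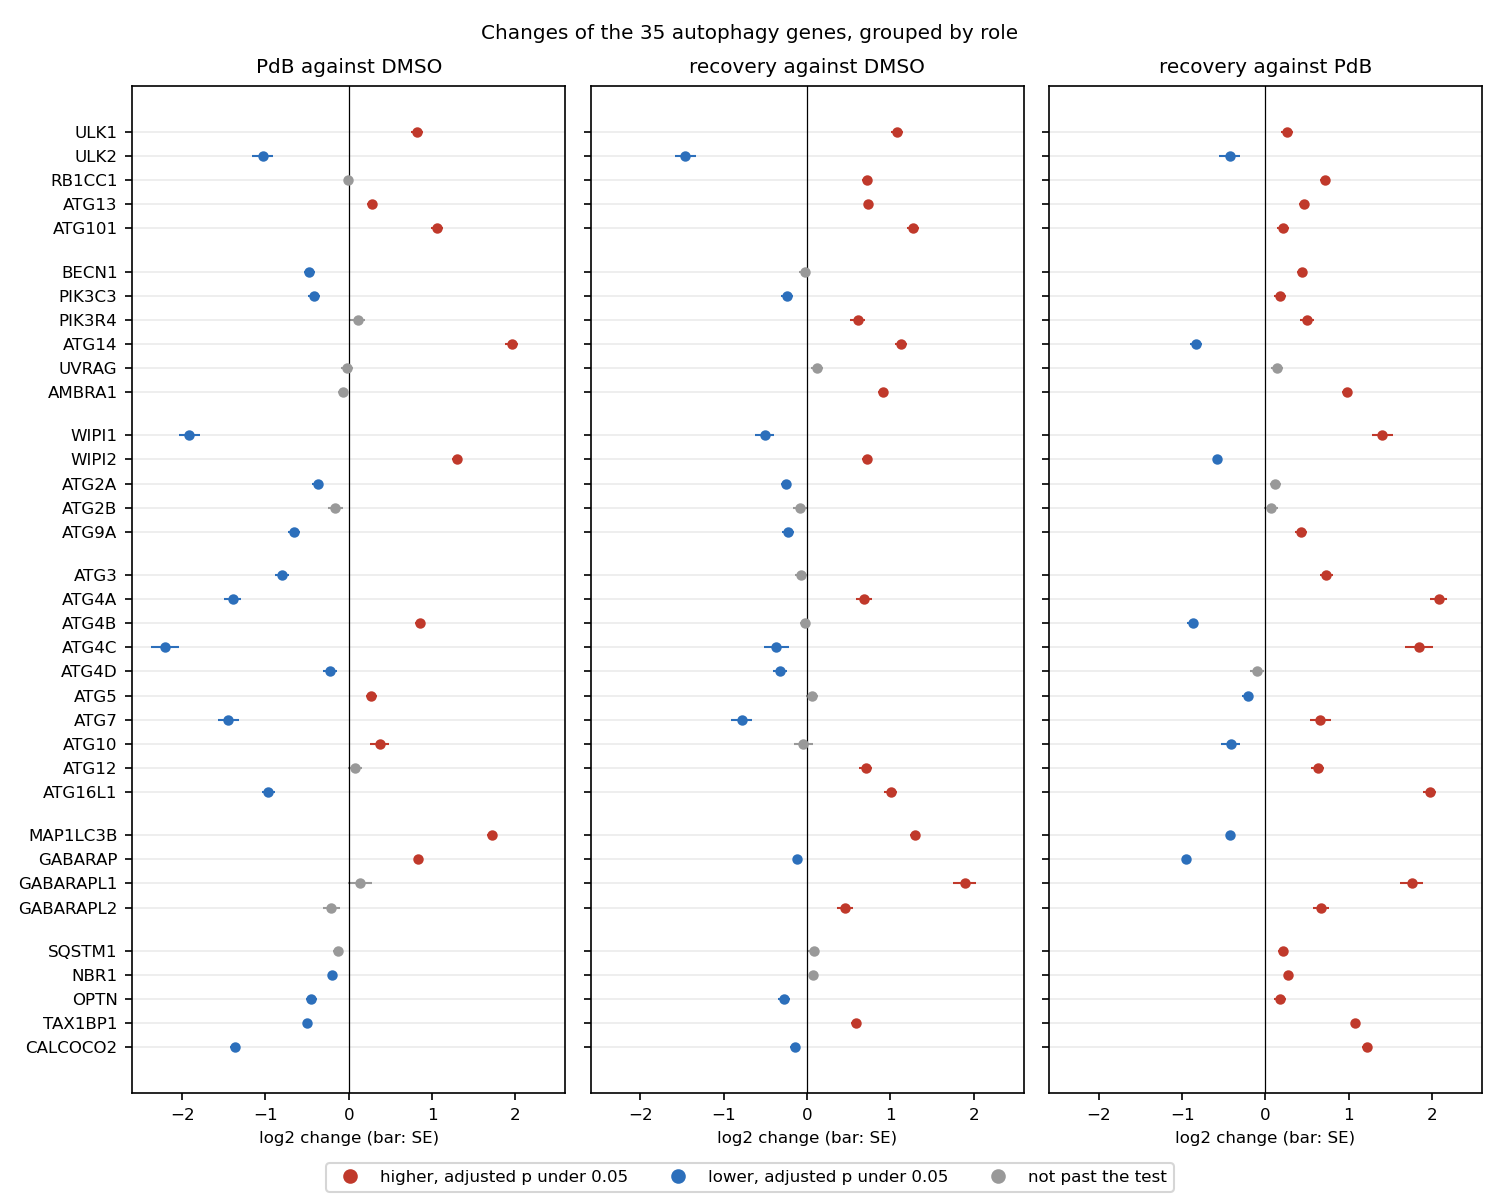
Log2 change of each of the 35 autophagy genes, in order of role, in 3 panels, 1 for each pair of groups, with SE bars. Red points were higher and blue points lower at an adjusted p under 0.05, and grey points did not pass. The points run from -2.21 for ATG4C to 1.95 for ATG14 under PdB, and ATG4A has the highest point, 2.08, for recovery against PdB.

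After 24 h of recovery, 15 of the 35 genes were higher and 11 lower than in DMSO cells, and 9 did not pass. GABARAPL1, an ATG8-family gene, at 3.71 times its DMSO level, MAP1LC3B, at 2.45 times, and the initiation complex gene ATG101, at 2.41 times, rose most, and ULK2, at 0.363 times, fell most. The background was 30.7% higher and 30.5% lower among all genes. Changes of at least 2-fold numbered 6 higher and 1 lower member, with 13.6% and 11.8% in the background, and the groups did not overlap for 27 members, with 70.4% in the background. The members' median log2 change was 0.076, beside 0.026 for all genes. All 15 rises passed under each of the 18 alternative settings, but the falls of ATG4C, ATG9A, CALCOCO2, GABARAP and PIK3C3 did not. The split was 18 higher and 7 lower with upper-quartile factors and 17 and 6 with library totals. Over all 20812 genes these scalings gave 6998 and 5828, and 6937 and 5837. Without recovery replicate 1, 7 members were lower, as were 5878 of the 21696 genes then tested. Of the 9 that did not pass, NBR1, SQSTM1 and UVRAG passed as higher with upper-quartile factors. The labels do not say when DMSO cells were collected, so recovery and the added 24 h in culture cannot be told apart.

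Set against PdB directly, recovered cells had 23 autophagy genes higher and 8 lower, and 4 did not pass. The largest rises were those of ATG4A, at 4.22 times its PdB level, ATG16L1, at 3.92 times, and ATG4C, at 3.58 times. GABARAP, at 0.516 times its PdB level, ATG4B, at 0.545 times, and ATG14, at 0.562 times, fell most. Among all genes 34.6% were higher and 31.5% lower, and the members' share of higher genes lay above that background; the list itself was not tested. Over all genes 7204 were higher and 6563 lower, or 8862 and 4876 with library totals, which gave 26 and 5 members. Rises of at least 2-fold numbered 7 and falls 0, with 19.7% and 13.2% in the background, and 31 members had groups that did not overlap, with 70.5% in the background. The members' median log2 change was 0.27, beside 0.062 for all genes. The calls of ATG10, ATG101, ATG5, OPTN, PIK3C3, SQSTM1 and ULK2 ended under at least 1 alternative, and ATG2A, ATG2B and UVRAG, which did not pass, passed as higher with library totals. All 3 comparisons draw on the same 3 groups, so the PdB libraries enter both the first and the third and the DMSO libraries both the first and the second.

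In the ULK1 initiation complex, 3 of 5 genes rose and 1 fell under PdB, and 4 rose and 1 fell at recovery against DMSO. Among all genes 32.0% were higher and 38.2% lower under PdB, and 30.7% and 30.5% at recovery. Under PdB, 2 rose and 2 fell with library totals, and 4 rose and 1 fell with upper-quartile factors. Over all 20812 genes these gave 5579 higher and 9098 lower, and 7510 and 7060. The split at recovery was the same under the other scalings. ULK1 (ENSG00000177169.10, chr12:131894651-131923167, GRCh38), the kinase that starts autophagosome formation, had 51.4, 52.8 and 47.8 CPM in PdB cells, 62.9, 58.8 and 60.7 in recovered cells and 30.9, 25.5 and 29.6 in DMSO cells. The PdB and recovered libraries all lay above every DMSO library. In edgeR's test the log2 change was 0.82 ± 0.074 (SE, adjusted p = 1.0e-08) under PdB and 1.08 ± 0.073 (SE, adjusted p = 3.6e-10) at recovery against DMSO. The paralogous kinase gene ULK2 went the other way, with 7.03, 6.66 and 7.72 CPM in PdB cells, 5.02, 4.80 and 6.05 in recovered cells and 13.9, 16.4 and 13.4 in DMSO cells. All 3 groups of ULK2 were separate, lowest after recovery. Its log2 change was -1.03 (adjusted p = 7.9e-07) under PdB, -1.46 (adjusted p = 1.3e-08) at recovery against DMSO and -0.43 (adjusted p = 0.0073) against PdB. The last of these did not pass with library totals.

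ATG101, which stabilises ATG13 in the complex, had 76.2, 76.5 and 65.7 CPM in PdB cells, 88.3, 89.1 and 75.2 in recovered cells and 33.8, 34.4 and 36.4 in DMSO cells. Both drug groups of ATG101 were above DMSO, and the PdB and recovered libraries overlapped. Its log2 change was 1.06 (adjusted p = 3.4e-10) under PdB and 1.27 (adjusted p = 5.7e-11) at recovery against DMSO. An annotated gene on the other strand covers 19.2% of its exon bases but had 393 reads in all, against 35195 for ATG101. ATG13, the regulatory subunit that mTORC1 phosphorylates, had 68.7, 69.3 and 68.8 CPM in PdB cells, 96.2, 97.3 and 91.2 in recovered cells and 55.4, 54.7 and 60.8 in DMSO cells, without overlap between groups. Its rise under PdB was small, 0.27 (adjusted p = 0.00029), and that at recovery larger, 0.74 (adjusted p = 1.9e-09). RB1CC1, which encodes the scaffold FIP200, had 51.6, 48.2 and 51.9 CPM in PdB cells, 85.4, 80.7 and 83.2 in recovered cells and 52.0, 48.4 and 51.6 in DMSO cells. The PdB and DMSO values of RB1CC1 overlapped, with a log2 change of -0.0028 (adjusted p = 0.97) that was 0.15 (adjusted p = 0.031) with upper-quartile factors and -0.20 (adjusted p = 0.0064) with library totals, so it was called in opposite directions by scaling. Recovered cells were higher than both, by 0.71 (adjusted p = 3.4e-09) against DMSO and 0.72 (adjusted p = 2.4e-09) against PdB.

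**Figure D2:**
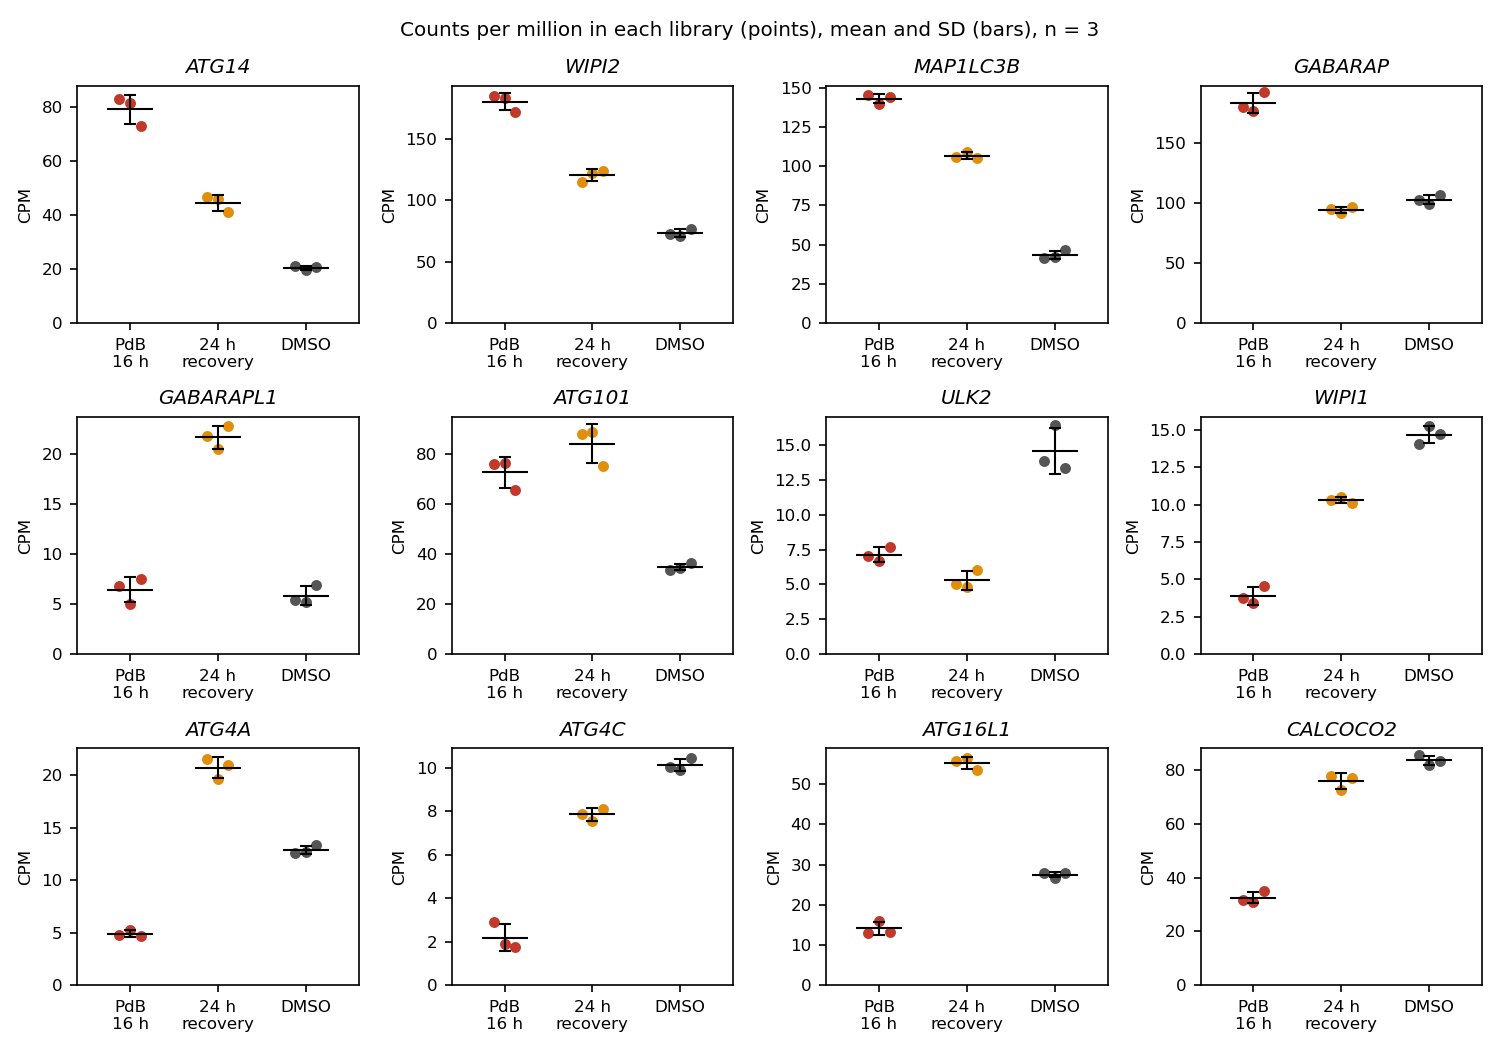
CPM of 12 autophagy genes in each of the 9 libraries (points), with the mean and SD of each group of 3 (bars), PdB, recovery and DMSO from left to right. ATG14, WIPI2, MAP1LC3B and GABARAP lie highest under PdB, GABARAPL1, ATG4A and ATG16L1 highest after recovery, and ULK2, WIPI1, ATG4C and CALCOCO2 highest with DMSO.

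Among the class III PI3-kinase genes, ATG14 rose under PdB while BECN1 and PIK3C3 fell. ATG14 (ENSG00000126775.9, chr14:55366392-55411858, GRCh38), the subunit that sends the kinase to the site of autophagosome formation and whose E-box is shown above, had 82.9, 81.6 and 73.0 CPM in PdB cells, 46.7, 45.8 and 41.0 in recovered cells and 21.0, 19.5 and 20.8 in DMSO cells. The groups did not overlap, with PdB highest and recovery between. The log2 change was 1.95 ± 0.072 (SE, adjusted p = 3.5e-14) under PdB, 1.12 ± 0.072 (SE, adjusted p = 1.6e-10) at recovery against DMSO and -0.83 (adjusted p = 4.6e-09) against PdB. BECN1, the Beclin 1 scaffold of the complex, had 55.3, 57.8 and 63.7 CPM in PdB cells, 77.7, 78.2 and 84.1 in recovered cells and 78.6, 80.6 and 85.9 in DMSO cells. BECN1 was lower in every PdB library than in any other, with a log2 change of -0.47 (adjusted p = 2.1e-06) against DMSO. It did not pass at recovery against DMSO, -0.031 (adjusted p = 0.69). CNTD1, on the other strand, covers 12.4% of BECN1's exon bases, with 261 reads against 41523. PSME3, also on the other strand, covers 4.68%, and its reads were not compared. PIK3C3, the catalytic subunit VPS34, had 27.1, 31.5 and 30.2 CPM in PdB cells, 34.1, 31.7 and 34.1 in recovered cells and 39.3, 38.6 and 40.5 in DMSO cells. PIK3C3 was lower than DMSO in both other groups, with log2 changes of -0.42 (adjusted p = 4.7e-05) under PdB and -0.24 (adjusted p = 0.0062) at recovery, of which the second did not pass with library totals.

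PIK3R4, the VPS15 subunit, and AMBRA1, which promotes Beclin 1 activity, were higher after recovery and did not pass under PdB. AMBRA1 had 29.9, 29.8 and 29.5 CPM in PdB cells, 59.4, 59.7 and 57.2 in recovered cells and 30.6, 30.6 and 32.4 in DMSO cells. Its PdB and DMSO values were close, with a log2 change of -0.069 (adjusted p = 0.33), and every recovered library stood above them, by 0.91 ± 0.061 (SE, adjusted p = 2.8e-10) against DMSO and 0.98 (adjusted p = 7.2e-11) against PdB. PIK3R4 averaged 23.3 ± 2.29 CPM in PdB cells, 32.9 ± 1.80 in recovered cells and 21.6 ± 1.51 in DMSO cells (SD, n = 3 each), with log2 changes of 0.11 (adjusted p = 0.28) under PdB and 0.61 (adjusted p = 6.4e-06) at recovery against DMSO. UVRAG, the subunit that takes the place of ATG14 in a complex of the endosomal pathway, averaged 30.6 ± 1.96 CPM in PdB cells, 33.8 ± 0.898 in recovered cells and 31.1 ± 1.90 in DMSO cells, and passed in no comparison, with adjusted p of 0.80 under PdB, 0.17 at recovery against DMSO and 0.10 against PdB. With library totals it passed in all 3, at -0.22, 0.19 and 0.41 on the log2 scale.

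Among the genes of phagophore expansion, the paralogues WIPI1 and WIPI2 changed in opposite directions. WIPI2, which recruits ATG16L1 to the membrane, had 185, 183 and 172 CPM in PdB cells, 115, 123 and 124 in recovered cells and 72.6, 70.9 and 76.7 in DMSO cells. All 3 groups of WIPI2 were separate, with PdB highest. Its log2 change was 1.3 ± 0.053 (SE, adjusted p = 1.4e-13) under PdB and 0.72 (adjusted p = 1.1e-09) at recovery against DMSO. WIPI1 had 3.77, 3.39 and 4.55 CPM in PdB cells, 10.3, 10.5 and 10.1 in recovered cells and 14.1, 15.2 and 14.7 in DMSO cells. Its PdB libraries were the lowest and its recovered libraries lay between. The log2 change was -1.91 ± 0.12 (SE, adjusted p = 8.0e-11) under PdB, -0.51 (adjusted p = 0.00077) at recovery against DMSO and 1.40 (adjusted p = 8.2e-09) against PdB. ARSG, on the other strand, covers 24.3% of WIPI1's exon bases, with 601 reads against 5571 over all libraries.

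ATG9A, the lipid scramblase carried on vesicles, had 54.0, 49.2 and 61.0 CPM in PdB cells, 70.0, 72.4 and 77.8 in recovered cells and 85.9, 81.7 and 90.6 in DMSO cells, without overlap between groups. It was lower, with log2 changes of -0.65 (adjusted p = 1.9e-07) under PdB and -0.23 (adjusted p = 0.0097) at recovery against DMSO. The second did not pass with library totals, with upper-quartile factors or without recovery replicate 1. A same-strand annotated gene covers 38.8% of ATG9A's exon bases, so reads of the pair may be split. The lipid transfer gene ATG2A had 72.9, 69.7 and 63.0 CPM in PdB cells, 73.2, 73.0 and 77.3 in recovered cells and 86.2, 86.4 and 93.8 in DMSO cells. ATG2A was lower than DMSO in both groups, with log2 changes of -0.37 (adjusted p = 2.8e-05) under PdB and -0.25 (adjusted p = 0.0015) at recovery. Its paralogue ATG2B averaged 38.0 ± 2.39 CPM in PdB cells, 39.9 ± 1.90 in recovered cells and 42.4 ± 5.59 in DMSO cells and passed in no comparison, with adjusted p of 0.10 under PdB, 0.38 at recovery against DMSO and 0.49 against PdB. With library totals it passed under PdB, at -0.36, and at recovery against PdB, at 0.34.

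Of the 10 conjugation genes, 6 fell and 3 rose under PdB, where 38.2% of all genes were lower and 32.0% higher. Across the other scalings 5 to 6 fell and 1 to 4 rose, while 7060 to 9098 of all 20812 genes fell and 5579 to 7510 rose. Among the 4 proteases that trim ATG8 proteins and release them from lipid, ATG4A and ATG4C fell and ATG4B rose. ATG4A had 4.74, 5.26 and 4.71 CPM in PdB cells, 21.5, 19.6 and 21.0 in recovered cells and 12.6, 12.7 and 13.3 in DMSO cells. The groups were separate, with recovered cells highest. The log2 change was -1.39 ± 0.10 (SE, adjusted p = 4.3e-10) under PdB, 0.69 ± 0.093 (SE, adjusted p = 3.8e-06) at recovery against DMSO and 2.08 ± 0.10 (SE, adjusted p = 2.0e-12) against PdB. ATG4B, the main protease for LC3B, had 74.2, 80.1 and 70.2 CPM in PdB cells, 40.8, 40.8 and 40.6 in recovered cells and 41.6, 42.2 and 40.4 in DMSO cells. Every PdB library was above the rest, 0.85 (adjusted p = 3.9e-10), and recovered and DMSO libraries overlapped, -0.023 (adjusted p = 0.77). ATG4C, among the lowest of the 35, had 2.92, 1.87 and 1.77 CPM in PdB cells, 7.88, 7.54 and 8.11 in recovered cells and 10.0, 9.91 and 10.5 in DMSO cells. Its PdB libraries were below all others, -2.21 ± 0.17 (SE, adjusted p = 8.9e-10), and the small difference at recovery, -0.37 (adjusted p = 0.043), did not pass under 12 of the alternatives. ATG4D had 37.8, 32.0 and 34.9 CPM in PdB cells, 36.2, 30.8 and 30.8 in recovered cells and 37.7, 40.1 and 44.3 in DMSO cells. Its PdB libraries overlapped DMSO, with a log2 change of -0.22 (adjusted p = 0.028) that did not pass under 8 alternatives, and it was lower at recovery, -0.32 (adjusted p = 0.0032). KRI1, on the other strand, covers 15% of its exon bases, had 64623 reads against 20196 for ATG4D, and was itself higher under PdB, by 0.40 (adjusted p = 0.00013).

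ATG7, the E1-like enzyme that activates both ATG12 and the ATG8 proteins, had 6.64, 8.14 and 8.97 CPM in PdB cells, 10.7, 14.2 and 12.6 in recovered cells and 19.7, 21.1 and 23.8 in DMSO cells. All 3 groups of ATG7 were separate, with PdB lowest. Its log2 change was -1.45 ± 0.13 (SE, adjusted p = 7.6e-09) under PdB and -0.79 ± 0.12 (SE, adjusted p = 1.9e-05) at recovery against DMSO. VGLL4, on the other strand, covers 18.1% of ATG7's exon bases, had 21457 reads against 8030 for ATG7, and was itself higher under PdB, by 1.48 (adjusted p = 3.6e-12). ATG3, the E2-like enzyme for the ATG8 proteins, whose upstream sequence holds the other E-box, had 37.0, 40.4 and 31.2 CPM in PdB cells, 59.9, 59.6 and 61.1 in recovered cells and 58.7, 67.5 and 63.3 in DMSO cells. Its PdB libraries were the lowest, -0.80 (adjusted p = 4.7e-08), and recovered and DMSO cells overlapped, -0.070 (adjusted p = 0.47). ATG10, the E2-like enzyme for ATG12, averaged 10.0 ± 0.123 CPM in PdB cells, 7.5 ± 0.535 in recovered cells and 7.73 ± 0.458 in DMSO cells, with log2 changes of 0.37 (adjusted p = 0.0069) under PdB and -0.045 (adjusted p = 0.76) at recovery against DMSO. The ribosomal protein gene RPS23, on the other strand, covers 6.86% of ATG10's exon bases, and its reads were not compared.

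The scaffold gene ATG16L1, whose product carries the ATG12-ATG5 conjugate to the membrane, changed in opposite directions in the 2 comparisons with DMSO. ATG16L1 had 13.0, 16.0 and 13.3 CPM in PdB cells, 55.7, 56.6 and 53.6 in recovered cells and 28.0, 26.7 and 27.8 in DMSO cells. Its groups did not overlap, with PdB lowest and recovery highest. The log2 change was -0.96 ± 0.081 (SE, adjusted p = 4.2e-09) under PdB, 1.01 ± 0.078 (SE, adjusted p = 2.1e-09) at recovery against DMSO and 1.97 ± 0.082 (SE, adjusted p = 2.5e-13) against PdB. ATG5, which is joined to ATG12, had 42.8, 40.2 and 39.1 CPM in PdB cells, 36.8, 34.5 and 34.1 in recovered cells and 33.2, 32.2 and 35.7 in DMSO cells. It was higher by 0.27 (adjusted p = 0.0017) under PdB and did not pass at recovery against DMSO, 0.060 (adjusted p = 0.47). Its log2 change at recovery against PdB, -0.21 (adjusted p = 0.011), became 0.055 with library totals. The ubiquitin-like gene ATG12 had 41.4, 41.6 and 35.5 CPM in PdB cells, 63.2, 66.1 and 54.1 in recovered cells and 38.7, 37.9 and 36.1 in DMSO cells. ATG12 overlapped between PdB and DMSO, 0.075 (adjusted p = 0.42), and was higher after recovery, 0.70 (adjusted p = 3.7e-07).

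Of the 4 ATG8-family genes, MAP1LC3B and GABARAP rose under PdB. GABARAPL1 and GABARAPL2 did not pass there and rose at recovery against DMSO. MAP1LC3B (ENSG00000140941.14, chr16:87383995-87404779, GRCh38), which encodes LC3B, a protein used to mark autophagosomes, had 145, 139.9 and 144 CPM in PdB cells, 106, 109 and 105 in recovered cells and 41.7, 42.4 and 46.5 in DMSO cells. These are RNA counts, and neither the protein nor autophagosomes were measured. Every PdB library was above every recovered one, and these above every DMSO one. The log2 change was 1.72 ± 0.055 (SE, adjusted p = 5.1e-15) under PdB, 1.29 ± 0.055 (SE, adjusted p = 7.1e-13) at recovery against DMSO and -0.42 (adjusted p = 1.1e-06) against PdB. The near-identical MAP1LC3B2 averaged 0.477 ± 0.237 CPM in PdB cells, 0.348 ± 0.169 in recovered cells and 0.265 ± 0.147 in DMSO cells. Reads of the pair cannot be fully told apart. GABARAP had 180.1, 176 and 192 CPM in PdB cells, 94.9, 91.4 and 96.6 in recovered cells and 102, 99.1 and 106 in DMSO cells. GABARAP was highest under PdB, 0.83 (adjusted p = 4.3e-11); at recovery it was lower than every DMSO library, -0.12 (adjusted p = 0.047), a call that ended under 13 alternatives. A same-strand annotated gene covers 30.5% of GABARAP's exon bases and had more reads than GABARAP, so its reads are uncertain.

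GABARAPL1, whose RefSeq window shown above holds no E-box, had 6.80, 5.04 and 7.47 CPM in PdB cells, 21.8, 20.5 and 22.8 in recovered cells and 5.37, 5.22 and 6.96 in DMSO cells. The PdB and DMSO libraries overlapped, 0.14 (adjusted p = 0.42). All recovered libraries were above both, by 1.89 ± 0.14 (SE, adjusted p = 1.4e-09) against DMSO and 1.75 ± 0.14 (SE, adjusted p = 2.7e-09) against PdB. GABARAPL2 had 15, 12 and 12.7 CPM in PdB cells, 21.7, 20.8 and 20.7 in recovered cells and 14.3, 14.7 and 17.0 in DMSO cells. It too stood highest after recovery, 0.46 (adjusted p = 0.00055) against DMSO and 0.67 (adjusted p = 1.0e-05) against PdB, and did not pass under PdB, -0.21 (adjusted p = 0.073), though it did under 4 alternatives, with changes from -0.24 to -0.41.

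Of the 5 receptor genes, 4 fell and 0 rose under PdB, and 5 of 5 rose at recovery against PdB, where 38.2% of all genes were lower and 34.6% higher in those comparisons. Across the other scalings 3 to 5 fell and 0 rose under PdB, and 3 to 5 rose at recovery against PdB. Over all 20812 genes, 7060 to 9098 fell under PdB and 6768 to 8862 rose at recovery against PdB with those scalings. CALCOCO2, which encodes NDP52, a receptor for bacteria and damaged mitochondria, had 31.8, 31.0 and 35 CPM in PdB cells, 77.9, 72.6 and 77.3 in recovered cells and 85.6, 82.1 and 83.6 in DMSO cells. Its PdB libraries were the lowest, -1.36 ± 0.060 (SE, adjusted p = 4.4e-13), and the small difference at recovery, -0.14 (adjusted p = 0.044), did not pass under 12 alternatives. TAX1BP1, a ubiquitin-binding receptor, had 103, 99.8 and 111 CPM in PdB cells, 220.3, 218 and 223 in recovered cells and 145, 144 and 153 in DMSO cells. It was lowest under PdB, -0.50 (adjusted p = 6.6e-08), and highest after recovery, 0.58 ± 0.050 (SE, adjusted p = 1.0e-08) against DMSO. OPTN, which encodes optineurin, had 61.1, 59.1 and 71.5 CPM in PdB cells, 71.7, 73.7 and 70.9 in recovered cells and 84.5, 84.2 and 93.0 in DMSO cells. OPTN was lower than DMSO in both groups, -0.45 (adjusted p = 1.1e-05) under PdB and -0.28 (adjusted p = 0.0018) at recovery.

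NBR1, which gathers ubiquitinated cargo with p62, averaged 106 ± 4.72 CPM in PdB cells, 128 ± 4.09 in recovered cells and 122 ± 4.59 in DMSO cells. Its fall under PdB was -0.20 (adjusted p = 0.0025) and did not pass under 5 alternatives, and at recovery it did not pass, 0.076 (adjusted p = 0.22). With RLE, upper-quartile or library-total scaling, or DESeq2, NBR1 passed as higher at recovery, with changes from 0.12 to 0.15. SQSTM1, which encodes p62 and is also a target of the oxidative stress factor NRF2, had 237, 220.5 and 246 CPM in PdB cells, 274, 257 and 282 in recovered cells and 239, 247 and 284 in DMSO cells. SQSTM1 passed in neither comparison with DMSO, with log2 changes of -0.13 (adjusted p = 0.072) under PdB and 0.079 (adjusted p = 0.29) at recovery. It passed as lower under PdB in 6 of 18 alternatives, among them library totals (-0.33), no filter (-0.16) and leaving out DMSO replicate 1 (-0.19). At recovery it passed as higher in 2, upper-quartile factors (0.16) and without DMSO replicate 3 (0.15). MRNIP, on the other strand, covers 20.7% of its exon bases. Recovered cells were above PdB cells, 0.21 (adjusted p = 0.0067), a call that ended with upper-quartile factors and with a mean of at least 50 reads as the filter.

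The genes differed widely in level once scaled by length, as CPM per kilobase of exon (RPKM). GABARAP was the highest, at 80.7 ± 3.65 RPKM in PdB cells, 41.6 ± 1.18 in recovered cells and 45.3 ± 1.61 in DMSO cells (SD, n = 3 each), and SQSTM1 second, at 30.6 ± 1.70 RPKM in PdB cells, 35.4 ± 1.67 in recovered cells and 33.5 ± 3.16 in DMSO cells. The third place was taken by MAP1LC3B in PdB cells, at 26.9 ± 0.536 RPKM, by ATG101 in recovered cells, at 26.3 ± 2.44 RPKM, and by ATG9A in DMSO cells, at 18.2 ± 0.933 RPKM. ATG4D, at 17.9 ± 1.48 RPKM, was within the spread of ATG9A there. TAX1BP1, at 24.1 ± 0.263 RPKM in recovered cells, was within the spread of ATG101. GABARAP, ATG9A, SQSTM1, ATG101 and ATG4D share exon bases with other genes, as given above, so their places in this order are uncertain. ATG4C and ULK2 were lowest in PdB cells, at 0.702 ± 0.206 and 0.725 ± 0.0549 RPKM, and ULK2 was lowest in recovered cells, at 0.537 ± 0.0676 RPKM. In DMSO cells ATG10, GABARAPL1 and ULK2 lay together at the bottom, at 1.42 ± 0.0840, 1.43 ± 0.236 and 1.48 ± 0.166 RPKM, within their spread.

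**Figure D3:**
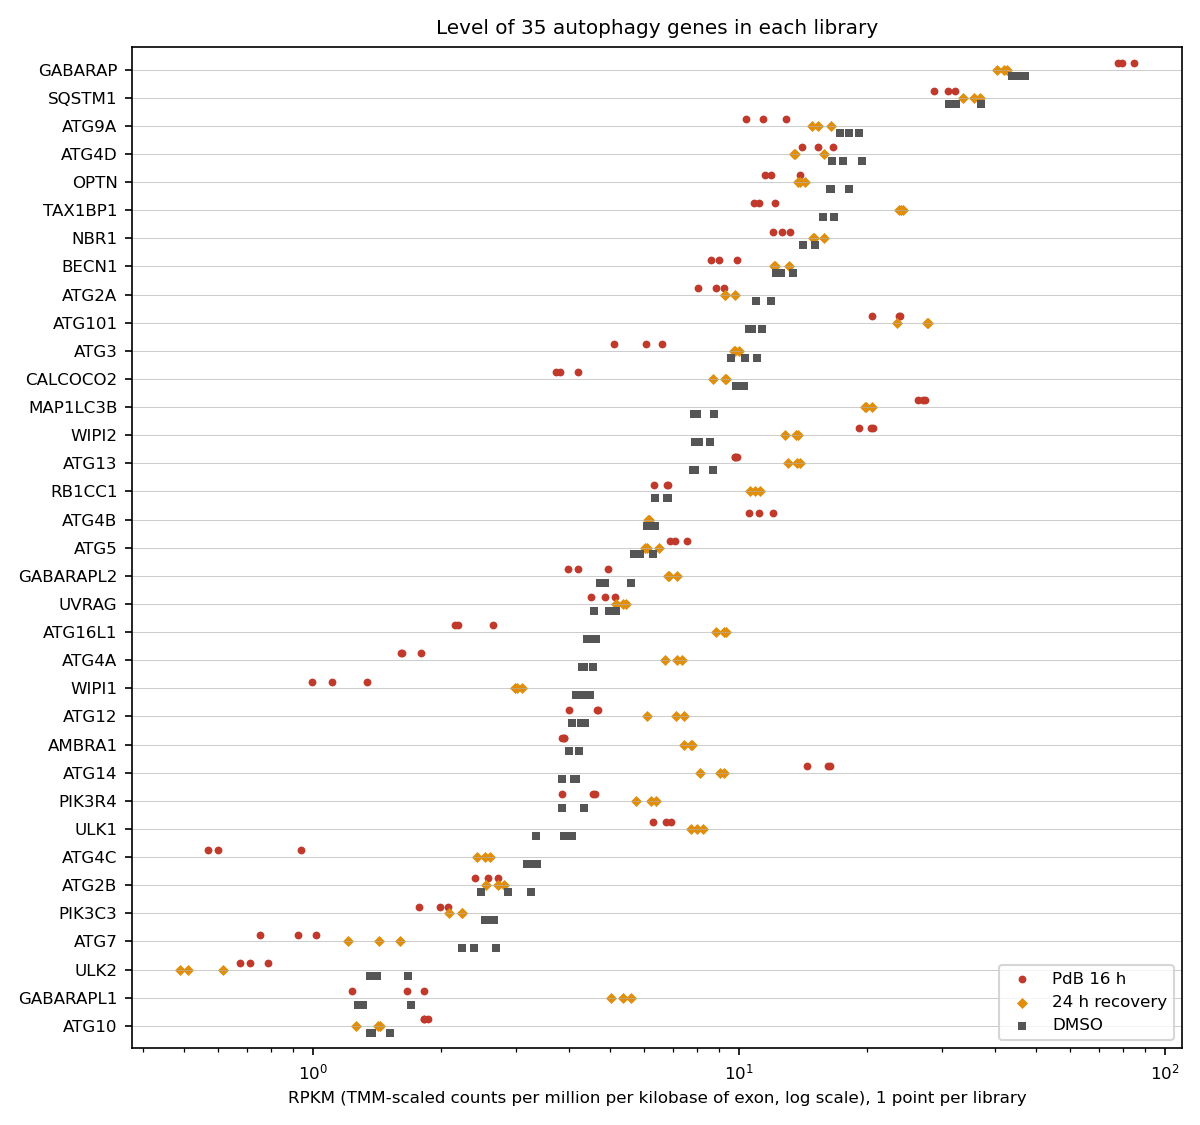
Length-scaled level (RPKM, log axis) of the 35 autophagy genes, ordered by their level with DMSO, with 1 point for each library and 1 colour and marker for each group. GABARAP and SQSTM1 are the highest in all 3 groups, and the lowest points are ULK2 in recovered cells and ATG4C in PdB cells. Both of the highest genes share exon bases with other genes, so their levels are uncertain.

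The genes around this core, in 6 further lists, moved in both directions under PdB. Most of the lysosomal hydrolases were higher and most of the organelle receptors lower. For all lists the shares over all genes tested were 32.0% higher and 38.2% lower under PdB, 30.7% and 30.5% at recovery against DMSO and 34.6% and 31.5% at recovery against PdB. With library totals the counts over all 20812 genes were 5579 higher and 9098 lower, 6937 and 5837, and 8862 and 4876 in these comparisons. Upper-quartile factors gave 7510 and 7060 under PdB. Of 23 genes for lysosomal hydrolases and their activators, 16 were higher and 2 lower under PdB, 3 were higher and 12 lower at recovery against DMSO, and 0 were higher and 23 lower at recovery against PdB. Their median log2 changes were 0.36, -0.20 and -0.61, beside medians of -0.11, 0.026 and 0.062 for all genes, and with library totals the counts were 12 and 4, 4 and 12, and 0 and 17. CTSD, the protease cathepsin D, averaged 1679 ± 62.6 CPM in PdB cells and 909 ± 52.5 in DMSO cells (SD, n = 3 each), the largest rise of the list under PdB, 0.89 (adjusted p = 5.2e-12). ARSA, arylsulfatase A, had the largest fall, -0.77 (adjusted p = 0.0010) under PdB and -1.83 (adjusted p = 1.1e-07) at recovery against DMSO, and CTSZ, cathepsin Z, had the largest fall against PdB, -1.50 (adjusted p = 1.2e-14). PSAP, which encodes the saposin precursor, had the largest rise at recovery against DMSO, 0.32 (adjusted p = 8.8e-07).

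Of 22 genes for lysosomal membrane proteins and the proton pump, 13 were higher and 7 lower under PdB, beside 32.0% and 38.2% of all genes, with 8 and 8 under library totals, and 10 were higher and 10 lower at recovery against DMSO. At recovery against PdB, 8 were higher and 10 lower, and the medians were 0.25, -0.0080 and 0.020 in the 3 comparisons, beside -0.11, 0.026 and 0.062 for all genes. LAMP1, the main glycoprotein of the lysosomal membrane, averaged 365 ± 10.4 CPM in PdB cells, 198 ± 6.36 in recovered cells and 162 ± 6.34 in DMSO cells. LAMP1 was higher by 1.17 ± 0.048 (SE, adjusted p = 1.4e-13) under PdB and 0.29 (adjusted p = 3.6e-05) at recovery against DMSO. LAMP2, which autophagosome clearance requires, changed by 0.25 (adjusted p = 0.00022) under PdB and -0.78 (adjusted p = 1.7e-10) at recovery against DMSO, and had the largest fall of the list against PdB, -1.02 (adjusted p = 2.3e-12). The proton pump subunit gene ATP6V0A1 fell most under PdB, -1.29 (adjusted p = 8.6e-11), and ATP6V1B2 rose most at recovery against PdB, 1.67 (adjusted p = 7.3e-15). At recovery against DMSO the pump subunit gene ATP6V1G1 rose most, 1.14 (adjusted p = 6.5e-12), and the lysosomal ion channel gene TMEM175 fell most, -0.91 (adjusted p = 1.1e-06).

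Of 33 genes that control autophagy through nutrients or transcription, 15 were higher and 11 lower under PdB, beside 32.0% and 38.2% of all genes. At recovery against DMSO 13 were higher and 10 lower, beside 30.7% and 30.5%. At recovery against PdB 14 were higher and 12 lower, or 17 and 4 with library totals. The medians were 0.15, 0.035 and 0.0020, beside -0.11, 0.026 and 0.062 for all genes, and the first turned to -0.050 with library totals. MTOR, the kinase of mTORC1 that restrains autophagy, averaged 33.0 ± 4.42 CPM in PdB cells, 49.0 ± 1.91 in recovered cells and 97.5 ± 3.42 in DMSO cells. MTOR was lower, with log2 changes of -1.56 ± 0.079 (SE, adjusted p = 2.7e-12) under PdB and -0.99 (adjusted p = 2.3e-09) at recovery against DMSO. Of 3 MiT/TFE genes, whose products bind E-boxes, TFEB was lower, with log2 changes of -1.06 (adjusted p = 5.9e-05) under PdB and -0.96 (adjusted p = 0.00019) at recovery against DMSO. TFE3 was higher by 0.40 (adjusted p = 6.2e-07) under PdB and did not pass at recovery, 0.067 (adjusted p = 0.25). MITF was higher in both, at 77.7 ± 2.71 CPM in PdB cells, 68.5 ± 2.79 in recovered cells and 25.4 ± 3.64 in DMSO cells, with log2 changes of 1.61 (adjusted p = 3.2e-12) under PdB and 1.43 (adjusted p = 3.9e-11) at recovery. SESN3, a sestrin that inhibits mTORC1 signalling, fell most under PdB, -3.50 (adjusted p = 8.2e-10), and rose most at recovery against PdB, 3.01 (adjusted p = 8.8e-09). FOXO1, a transcription factor of autophagy genes, rose most at recovery against DMSO, 1.75 (adjusted p = 3.5e-10), and DDIT4, an inhibitor of mTORC1 signalling, fell most, -1.15 (adjusted p = 1.9e-09). RRAGA, a Rag GTPase that brings mTORC1 to the lysosome, fell most at recovery against PdB, -1.68 (adjusted p = 3.7e-14).

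Of 15 tested fusion genes, 5 were higher and 8 lower under PdB, beside 32.0% and 38.2% of all genes, and 6 higher and 7 lower at recovery against DMSO, while 9 were higher and 5 lower at recovery against PdB; RUBCNL was not tested. The medians were -0.29, -0.056 and 0.28. VPS18, a subunit of the HOPS and CORVET tethers, rose most in both, averaging 133 ± 7.74 CPM in PdB cells, 68.9 ± 2.90 in recovered cells and 26.3 ± 3.13 in DMSO cells. It was higher by 2.34 (adjusted p = 6.4e-15) under PdB and 1.39 (adjusted p = 1.7e-11) at recovery. The tethering gene TECPR1 fell most under PdB, -2.31 (adjusted p = 2.3e-13), and the HOPS subunit gene VPS41 at recovery against DMSO, -1.20 (adjusted p = 3.6e-09). Against PdB, another HOPS subunit gene, VPS33A, rose most at recovery, 1.80 (adjusted p = 3.0e-13), and the SNARE gene VAMP8 fell most, -1.16 (adjusted p = 9.2e-10).

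Of 16 tested receptors for organelles, 4 were higher and 12 lower under PdB, beside 32.0% and 38.2% of all genes, and 3 higher and 7 lower at recovery against DMSO, with medians of -0.48 and -0.14. The number lower under PdB was 9 with upper-quartile factors and 12 with RLE factors or library totals. At recovery against PdB 4 were higher and 6 lower. The endoplasmic reticulum receptor gene RETREG1 had the largest fall under PdB, -1.55 (adjusted p = 0.034), and the mitochondrial receptor gene BNIP3L the largest fall at recovery against DMSO, -1.38 (adjusted p = 8.2e-12). WDFY3, which encodes the aggregate adaptor ALFY, had the largest rise in both, 0.70 (adjusted p = 4.6e-08) under PdB and 0.58 (adjusted p = 7.9e-07) at recovery. At recovery against PdB, CALCOCO1 rose most, 1.20 (adjusted p = 1.8e-08), and the mitochondrial receptor gene FKBP8 fell most, -0.76 (adjusted p = 3.5e-11). Of 16 other ATG-family and phagophore genes, 6 were higher and 7 lower under PdB, 6 higher and 3 lower at recovery against DMSO, with medians of 0.14 and 0.34, and 8 higher and 5 lower at recovery against PdB. ATG16L2, the paralogue of ATG16L1, averaged 2.63 ± 0.803 CPM in PdB cells, 6.69 ± 0.646 in recovered cells and 31.1 ± 1.70 in DMSO cells. It had the largest fall in both, -3.56 (adjusted p = 6.9e-13) under PdB and -2.22 (adjusted p = 2.8e-10) at recovery. The p53-induced gene TP53INP1 had the largest rise in both, 2.02 (adjusted p = 2.5e-12) under PdB and 1.33 (adjusted p = 1.7e-09) at recovery. At recovery against PdB the LC3-family gene MAP1LC3C rose most, 3.39 (adjusted p = 0.00013), from as few as 3 reads in a library, and WDR45B, a WIPI-family gene, fell most, -1.22 (adjusted p = 4.7e-14).

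**Figure D4:**
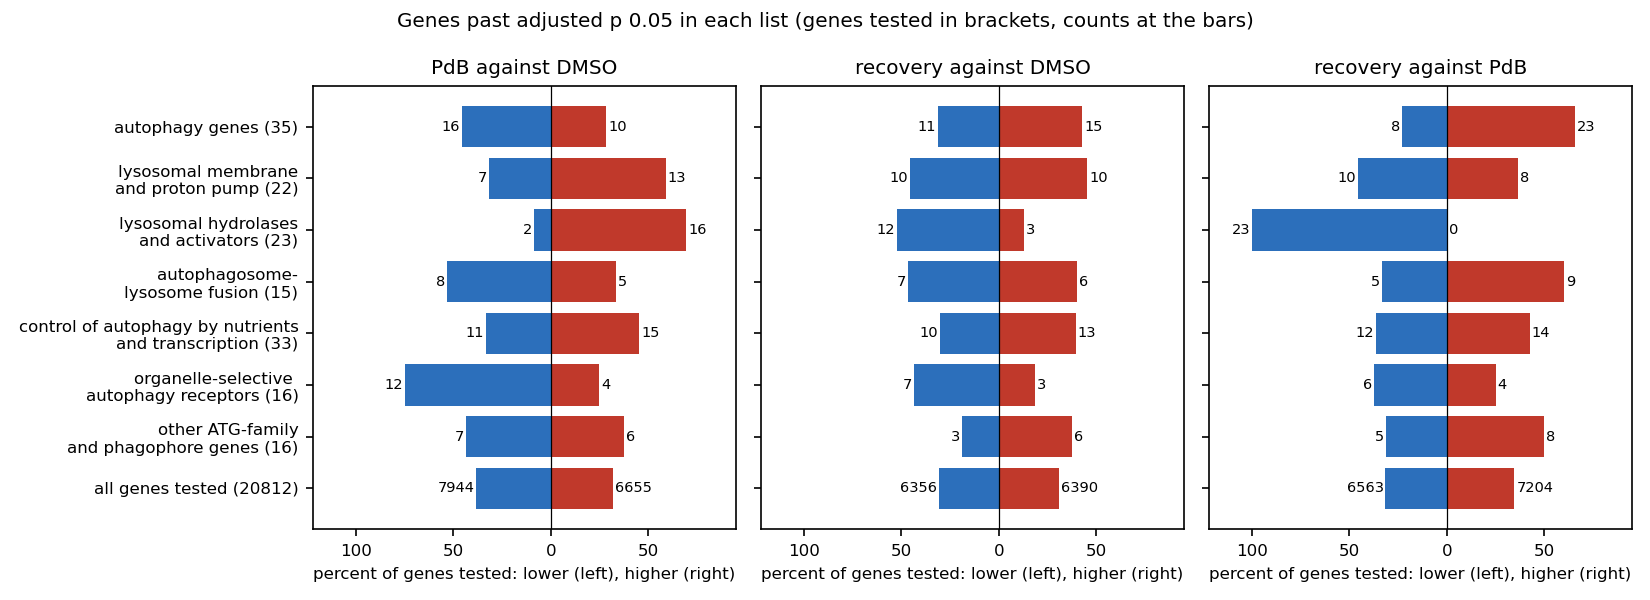
Percent of genes tested that were higher (bars to the right) and lower (bars to the left) at an adjusted p under 0.05, for the 35 autophagy genes, 6 further lists and all genes tested. Counts stand at the bars. The bar for the 23 lysosomal hydrolases at recovery against PdB runs to the left only, with 23 lower and 0 higher.

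Because PdB acts on splicing, the changes were set beside the number of introns in the transcript with the longest coding sequence in GENCODE 29, which ranged from 2 in GABARAPL1 to 41 in ATG2B. Across the 35 genes, Spearman's correlation of intron number with log2 change was -0.33 for PdB against DMSO and -0.25 for recovery against DMSO. The same values over 14226 protein-coding genes tested were -0.34 and -0.20. For recovery against PdB the value was 0.073 across the 35 genes and 0.21 across all protein-coding genes. These are descriptions across genes of the same libraries, which are not independent replicates. Under PdB the 6 members with 1 to 4 introns had a median of 0.48, beside 0.26 for all such genes, and the 9 members with 10 to 14 introns had a median of -0.80, beside -0.45. The 7 members with 20 or more introns had a median of -0.20, beside -0.91 for all such genes, and ULK1, with 27 introns, and ULK2, with 26, lay on either side of 0. Paralogues with the same number of introns also differed in direction: WIPI1 and WIPI2 have 12 each, and so do ATG4A and ATG4B.

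**Figure D5:**
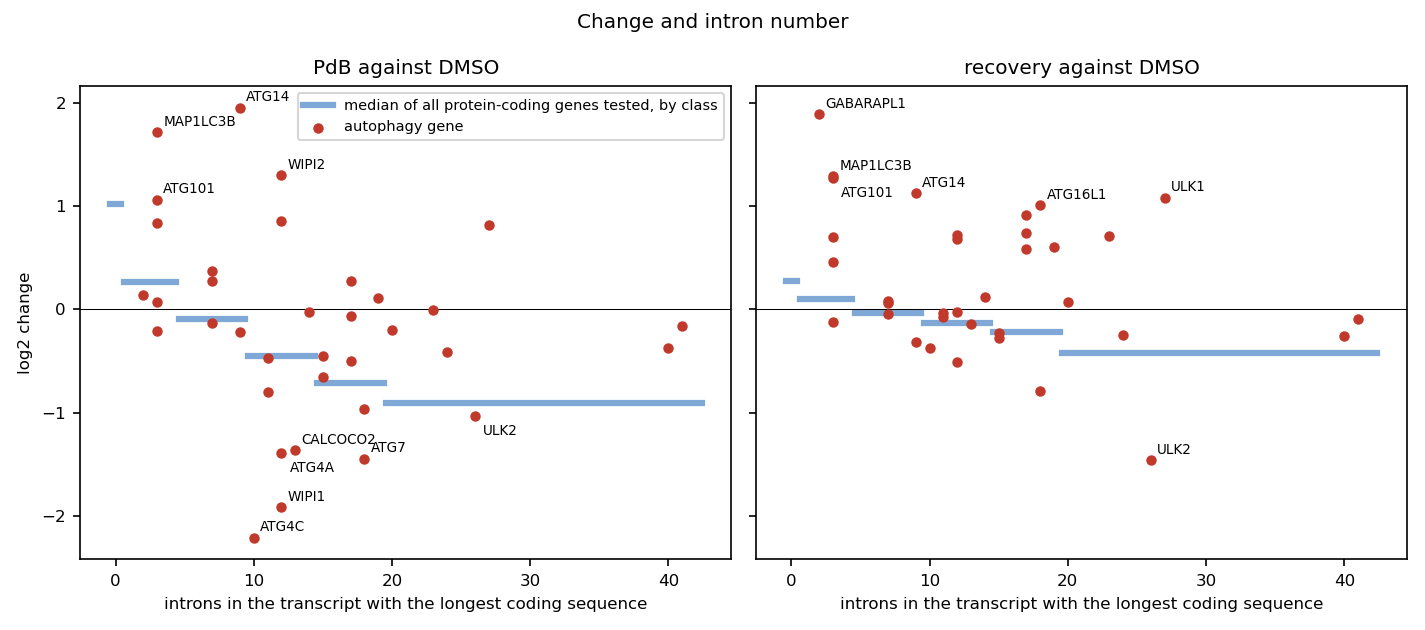
Log2 change of the 35 autophagy genes against the number of introns, for PdB against DMSO and recovery against DMSO, with the median of all protein-coding genes in each intron class. Points spread on both sides of the class medians; WIPI1 and WIPI2, with 12 introns each, lie at -1.91 and 1.3 under PdB.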

How the data were processed

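Polyadenylated RNA of 9 MDA-MB-231 libraries (3 treated with PdB, 3 recovered, 3 given DMSO) was deposited as 1 table of whole-number read counts per Ensembl gene, made by the authors. The tools named are featureCounts 2.0.3 and STAR 2.7.9a, on build hg38, with DESeq2 1.30.0, fastp 0.23.2 and Picard also listed, per the submitters' processing notes. For all of these the settings, the annotation release and the strand option were not given in the sources used here; as a result reads of overlapping genes on either strand cannot be told apart. Each column of the table was assigned to its sample by its name, and every column belonged to 1 of the 9 samples.

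The counts were analysed with edgeR 4.0.16 in R 4.3.3. Genes were kept by filterByExpr (20812 of 60708), libraries were scaled by TMM, and glmQLFit and glmQLFTest (two-sided) were run on all 9 libraries in 1 fit with group as the only term. P-values were adjusted by Benjamini-Hochberg over all genes tested, with a threshold of 0.05; SE is the log2 change divided by the square root of F. CPM are counts per 1000000 TMM-scaled reads; RPKM divides them by the length of all exons merged. The fit was also run on simulated counts with far fewer changed genes than were called here, which does not test the scaling. Symbols matched 60463 gene IDs, and coordinates, exon lengths, introns and overlaps came from GENCODE 29 on GRCh38, which matched 58440 IDs; 1 of the 35 members has the same ID version there, the others being matched without version. Overlapping genes whose reads were compared cover at least 12.4% of a member's exon bases. Smaller overlaps of other members were present and are mostly not named. Promoter sequences are RefSeq's, from GRCh38.p14.

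All 35 members may be named; of each further list the largest rise and fall in each comparison were named, with TFEB, TFE3, MITF, MTOR, LAMP1 and LAMP2. Members and lists were chosen with earlier results of these data known. The 18 alternatives per result were other scalings, other filters, DESeq2 1.42.0, a stricter threshold, only the 6 libraries compared, a replicate block and leaving out each library.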

Additional observations from a re-analysis of the deposited data

How the results depend on the processing

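Of 35 autophagy genes, those lower at recovery against DMSO numbered 11 and became 7 with upper-quartile factors and, scaled by library totals alone, 6, and between 7 and 11 when 1 library was left out, with 7 without recovery replicate 1. Those lower at recovery against PdB numbered 8 and became 5 with library totals. The other counts of members and of all genes called stayed within 1.5 times under every alternative run. A pair of single-gene changes turned direction with a call on either side: RB1CC1 under PdB, at -0.0028, became 0.15 with upper-quartile factors (and passed as lower, at -0.20, with library totals), and ATG5 at recovery against PdB, at -0.21, became 0.055 with library totals. The scaling sets these values by construction, since the median of all genes under PdB was -0.11 with TMM, -0.014 with RLE factors, 0.039 with upper-quartile factors and -0.31 on library totals. Calls that passed under all 18 alternatives were 7 of 10 rises and 14 of 16 falls under PdB, 15 of 15 and 6 of 11 at recovery against DMSO, and 19 of 23 and 5 of 8 at recovery against PdB. Members that did not pass stayed so under all 18 for 1 of 9, 6 of 9 and 1 of 4. Replicate numbers were not taken to pair the samples, since not every same-number correlation of deviations from the group means was over 0.1. The 9 ran from 0.0036 to 0.18, all above 0, and those among replicates 3 from 0.155 to 0.181, but PdB replicate 1 correlated better with recovery replicate 2, at 0.059, than with recovery replicate 1, at 0.043. Correlations between different numbers ran from -0.19 to 0.075, so whether the numbers mark pairs is not settled. With the replicate number as a block, members called were 10 higher and 17 lower under PdB, 15 and 11 at recovery against DMSO and 23 and 8 against PdB, and over all genes 6638 and 7990, 6464 and 6458, and 7291 and 6580. SQSTM1 under PdB then passed, at -0.13 (edgeR adjusted p = 0.016), which was the only member call to change. Depth limits mainly ATG4C, with as few as 92 reads in a PdB library.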
